A study of Homo sapiens with 4 samples.

Results

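The NRF2 antioxidant genes described here are NFE2L2, which encodes the transcription factor NRF2, its inhibitor KEAP1, and 8 genes NRF2 is known to activate. These 8 were GCLC, GCLM, GSR, TXN, TXNRD1, SRXN1 and NQO1, of glutathione, thioredoxin and quinone metabolism, and OSGIN1, a growth inhibitor. The genes were chosen by name, and all 10 were found among the 25702 genes of the count files. Whole transcriptome sequencing was performed on K562, an established human chronic myeloid leukemia cell line, transiently transfected with the LeGO-iG2 plasmid expressing the fusion protein RUNX1::ERG or with LeGO-iG2 lacking an insert (empty vector), with 2 biological replicates of each. LeGO-iG2 also expresses green fluorescent protein, so both groups carry the vector backbone. The cells received no further treatment, and no sorting of transfected cells is stated for them. In such bulk RNA, a change in a few cells and a smaller change in all cells cannot be told apart.

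NRF2 is made continuously, and in unstressed cells KEAP1 holds it for ubiquitination and destruction by the proteasome. Oxidants and electrophiles modify cysteines of KEAP1, so that NRF2 escapes, enters the nucleus, pairs with a small MAF protein and binds the antioxidant response element upstream of its targets. Much of the control therefore acts on NRF2 protein, which was not measured here, and the mRNA of the target genes is the usual readout of its activity.

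The antioxidant response element has the core TGACNNNGC. The letters of this core are shown because they are what the target genes are known to share, and because not all of the 10 genes carry it close to their start. The window ran from 1000 bases upstream to 50 bases downstream of the canonical transcript start in GENCODE v44 on GRCh37, and both strands were searched. A match was present in 7 of the 10 genes and in 34.5% of the 19856 protein-coding genes searched. The 7 were GCLC, GCLM, GSR, TXN, TXNRD1, NQO1 and OSGIN1. NFE2L2, KEAP1 and SRXN1 had no match in this window. Each matched core is printed in capitals with its flanks in lower case, on the strand on which it reads as the core. The match of GSR is not shown.
NQO1, chr16:69760902-69760926, minus strand: agtcacagTGACTCAGCagaatctg
GCLM, chr1:94375004-94375028, plus strand: gaagacaaTGACTAAGCagaaatcg
TXNRD1, chr12:104609450-104609474, plus strand: acgggctaTGACTTCGCtgttgtca
TXNRD1, chr12:104609541-104609565, minus strand: gtgggaacTGACGGAGCcgaaggac
OSGIN1, chr16:83986280-83986304, plus strand: acaatctgTGACTTGGCcccagttt
TXN, chr9:113019352-113019376, plus strand: ctccagctTGACACAGCggtttagt
GCLC, chr6:53410753-53410777, plus strand: atatgtgtTGACAGAGCaatgacct

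The match of NQO1 lay 455 bases upstream of the start and was the only one of the 7 printed that read TGACTCAGC, which also contains the AP-1 letters TGACTCA. This longer form was present in 1.35% of all windows. The match of GCLM lay 34 bases upstream, those of TXNRD1 99 and 8 bases, that of OSGIN1 557, that of TXN 581 and that of GCLC 870. The RUNX letters TGTGGT were present in 4 of the 10 windows, against 40.3% of all windows, and the ETS letters CGGAAG in 3, against 39.8%. These shares are near the background, and a match of letters does not show that a factor binds.

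Library totals ran from 59695387 to 82352144 counts, and a count of 0 allows up to 3 counts, or 0.0364 to 0.0503 CPM, for counting error only. Most low counts were even, so if both mates of a read pair were counted, small counts stand for fewer fragments and this limit is higher. ERG, the 3′ partner of the fusion, was at 4 counts in both libraries of the empty vector, against 80443 in the first and 27218 in the second RUNX1::ERG replicate, as the labels require. Erythroid genes that mark K562 were expressed in every library, with GATA1, an erythroid transcription factor, between 256 and 302 normalized CPM and HBG1, a fetal globin, between 477 and 563. They were not all level, since HBZ, an embryonic globin, was at 966 and 1100 in the empty vector libraries and at 753 and 615 with RUNX1::ERG (log2 fold change -0.59, just outside the threshold), and TFRC, the transferrin receptor, had a log2 fold change of -0.57 (edgeR adjusted p = 0.243). Of 8 markers of other cell types, which summed to between 85.1 and 89.7 normalized CPM with the empty vector and to 108 and 106 with RUNX1::ERG, PECAM1, COL1A1 and CD14 rose, by 2.96, 2.42 and 3.24 on the log2 scale, and MS4A1 was at 0. EPCAM made up most of the empty vector sums, at 75.4 and 81.2, and was at 55.5 and 58.2 with RUNX1::ERG (log2 fold change -0.46, edgeR adjusted p = 0.137). The part of these markers in the results below was not tested. Empty vector replicate 1 stood apart in the 18 ATF4 stress genes, which are induced by amino acid shortage and endoplasmic reticulum stress. Their sum was 3700 normalized CPM in that library and 1020, 907 and 822 in empty vector replicate 2 and RUNX1::ERG replicates 1 and 2. All 18 genes were fitted lower with RUNX1::ERG, and 5 of them had an edgeR adjusted p under 0.05, against 1.15% of all genes tested. Empty vector replicate 1 was the highest library in each of the 18. These fits include it, so they cannot show whether the difference extends beyond that library. In 10 of the 18, empty vector replicate 2 also exceeded each RUNX1::ERG value, and in the others it fell between them. Whether this exceeds the share among all genes was not tested.

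None of the 10 NRF2 antioxidant genes passed an adjusted p of 0.05 between RUNX1::ERG and empty vector when 15394 genes were tested (edgeR, quasi-likelihood, Benjamini-Hochberg adjustment). Of all genes tested, 4.79% passed, 3.64% higher and 1.15% lower with RUNX1::ERG, so at that share no call among 10 genes is near the background. At an unadjusted p under 0.05, 2 of the 10 passed, namely NFE2L2 and OSGIN1, against 2767 of all 15394 genes tested. This is near the background. Under DESeq2 and limma voom the number called was also 0. The median log2 fold change of the 10 genes was -0.03, and that of all genes tested was 0. The RUNX1::ERG libraries both lay above those of the empty vector in 1 gene, OSGIN1, and both below them in 1 gene, NFE2L2. Over all genes tested these shares were 25.1% and 22.1%, so this arrangement was not more frequent among the 10. With 2 libraries a group, exact two-sided permutation gives no p below 0.333, and the p-values per gene draw on a spread estimated from all genes.

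**Figure D1:**
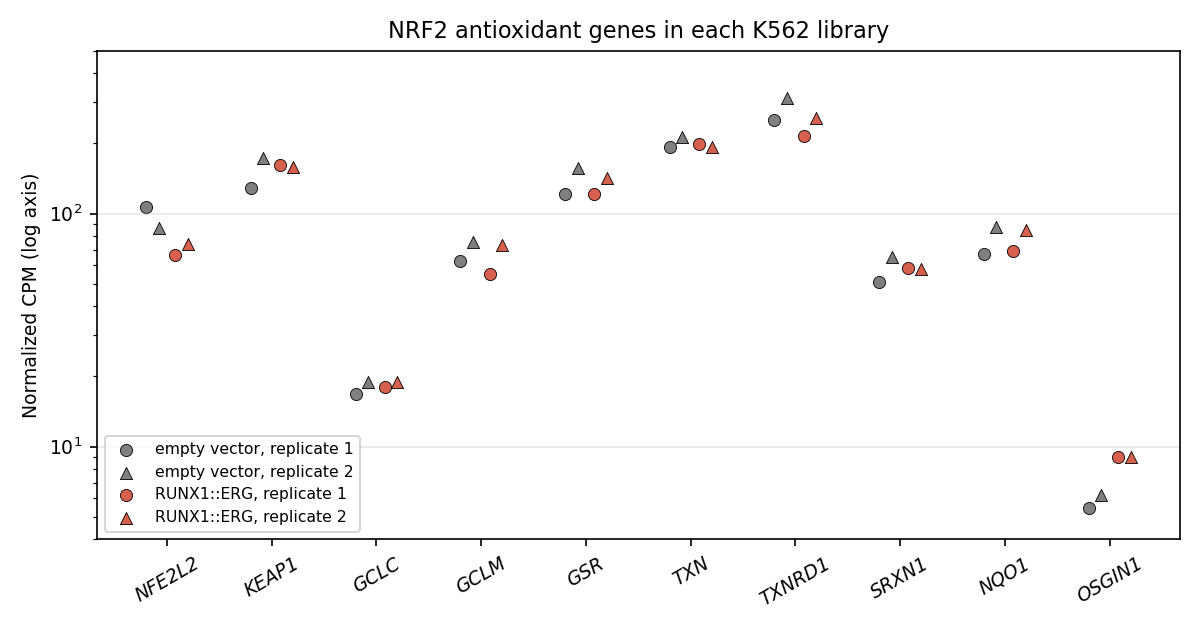
Normalized CPM (log axis) of the 10 NRF2 antioxidant genes in each library; grey symbols are empty vector, red symbols RUNX1::ERG, circles replicate 1 and triangles replicate 2. The red symbols lie below both grey symbols for NFE2L2 and above both for OSGIN1, and the groups overlap for the other 8 genes.

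The levels of the regulators were compared first. NFE2L2 (NCBI gene 4780, chromosome 2 of GRCh37, 178083395 to 178257484, minus strand) was at 107 and 86.7 normalized CPM in empty vector replicates 1 and 2 and at 66.2 and 74.4 in RUNX1::ERG replicates 1 and 2. Both RUNX1::ERG libraries were lower, and the groups did not overlap. Its log2 fold change was -0.46 (SE, the standard error, 0.17, 95% interval -0.83 to -0.09, edgeR adjusted p = 0.174), which did not pass the threshold. The fitted level was 0.727 times that of the empty vector. Leaving out empty vector replicate 1 gave -0.31, and leaving out empty vector replicate 2 gave -0.6.

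KEAP1 (NCBI gene 9817, chromosome 19, 10596801 to 10614234, minus strand) is the substrate adaptor that delivers NRF2 to the CUL3 ubiquitin ligase. It was at 129 and 173 normalized CPM in empty vector replicates 1 and 2 and at 162 and 159 in RUNX1::ERG replicates 1 and 2. The RUNX1::ERG libraries both lay between the empty vector libraries. Its log2 fold change was 0.09 (SE 0.17, 95% interval -0.29 to 0.48, edgeR adjusted p = 0.854). It was -0.11 if empty vector replicate 1 was left out and 0.32 if empty vector replicate 2 was, so its direction depended on which of these libraries was kept.

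The ratio of KEAP1 to NFE2L2, each per kilobase of its canonical transcript, was formed after these values had been seen. It was 1.15 and 1.9 in empty vector replicates 1 and 2 and 2.34 and 2.04 in RUNX1::ERG replicates 1 and 2. Both RUNX1::ERG libraries were above both empty vector libraries, an arrangement for which the exact two-sided permutation test gives p = 0.333, the smallest it can give. The gap between RUNX1::ERG replicate 2 and empty vector replicate 2 was smaller than the gap between the empty vector libraries.

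Glutathione is made from glutamate, cysteine and glycine, and its first and rate-limiting step is carried out by glutamate-cysteine ligase. GCLC (NCBI gene 2729, chromosome 6, 53362139 to 53481768, minus strand), the catalytic subunit, was at 16.9 and 18.9 normalized CPM in empty vector replicates 1 and 2 and at 18 and 18.9 in RUNX1::ERG replicates 1 and 2. All 4 values were close together and the groups overlapped. The log2 fold change was 0.05 (SE 0.19, 95% interval -0.37 to 0.47).

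GCLM (NCBI gene 2730, chromosome 1, 94350755 to 94375012, minus strand), the modifier subunit that raises the affinity of the ligase for its substrates, was at 62.7 and 75.5 normalized CPM with the empty vector. With RUNX1::ERG it was at 55.2 and 73.6. The second replicate was the higher one in both groups, by 20.3% and 33.4%, and these gaps were larger than the difference between the group means of 69.1 ± 9.02 and 64.4 ± 13 (SD, n = 2). The log2 fold change was -0.1 (SE 0.19, 95% interval -0.52 to 0.31).

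GSR (NCBI gene 2936, chromosome 8, 30535583 to 30585363, minus strand) encodes glutathione reductase, which returns oxidized glutathione to its reduced form with NADPH. It was at 121 and 157 normalized CPM in empty vector replicates 1 and 2 and at 121 and 142 in RUNX1::ERG replicates 1 and 2. The first replicates of the groups had the same level to this precision. For GSR the log2 fold change was -0.08 (SE 0.18, 95% interval -0.47 to 0.31). For these 3 glutathione genes the adjusted p-values from edgeR ran from 0.846 for GCLM to 0.938 for GCLC.

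In the thioredoxin system, TXN (NCBI gene 7295, chromosome 9, 113006090 to 113018787, minus strand) encodes the small protein that reduces disulfides in other proteins. It was at 194 and 213 normalized CPM in the empty vector libraries and at 198 and 194 with RUNX1::ERG. The RUNX1::ERG values lay within or at the edge of the empty vector range. For TXN the log2 fold change was -0.05 (SE 0.15, 95% interval -0.38 to 0.28).

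TXNRD1 (NCBI gene 7296, chromosome 12, 104609557 to 104744085, plus strand), the cytosolic selenoprotein that recharges thioredoxin from NADPH, was at 252 and 312 normalized CPM in empty vector replicates 1 and 2 and at 216 and 258 in RUNX1::ERG replicates 1 and 2. RUNX1::ERG replicate 2 lay above empty vector replicate 1, so the groups overlapped. The means were 282 ± 42.5 and 237 ± 29.6 (SD, n = 2), and the log2 fold change of -0.25 (SE 0.17, 95% interval -0.62 to 0.12, edgeR adjusted p = 0.498) was the furthest from 0 after OSGIN1 and NFE2L2. It ran from -0.4 to -0.09 when single libraries were left out.

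SRXN1 (NCBI gene 140809, chromosome 20, 627259 to 633844, minus strand), sulfiredoxin, repairs peroxiredoxins whose active cysteine has been overoxidized. It was at 50.8 and 65.3 normalized CPM in the empty vector libraries and at 58.7 and 57.8 with RUNX1::ERG. Here too RUNX1::ERG lay between the empty vector libraries. The fit gave a log2 fold change of 0.01 (SE 0.18, 95% interval -0.38 to 0.39).

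NQO1 (NCBI gene 1728, chromosome 16, 69740899 to 69760571, minus strand), the quinone reductase whose upstream element is printed first above, is a widely used marker of NRF2 activity. It was at 66.9 and 87.7 normalized CPM in empty vector replicates 1 and 2 and at 69 and 84.9 in RUNX1::ERG replicates 1 and 2. Both RUNX1::ERG libraries lay inside the empty vector range. The fitted log2 fold change was -0.01 (SE 0.19, 95% interval -0.42 to 0.4), so on the linear scale the interval ran from 0.75 to 1.32 times the empty vector level.

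OSGIN1 (NCBI gene 29948, chromosome 16, 83964916 to 83999937, plus strand), an oxidative stress-induced growth inhibitor, was the gene with the lowest level and the largest fitted change. It had 327 and 438 counts in empty vector replicates 1 and 2 and 762 and 648 in RUNX1::ERG replicates 1 and 2, that is 5.43, 6.21, 9.04 and 9.01 normalized CPM. Both RUNX1::ERG libraries were higher, and they were nearly equal. The log2 fold change was 0.63 (SE 0.24, 95% interval 0.11 to 1.15, edgeR adjusted p = 0.179), and the value did not pass the threshold. It lay between 0.53 and 0.73 under all 10 alternatives, in each of which it was higher with RUNX1::ERG and not called.

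Some of these values carry an annotation limit, because the annotation and strand setting of the counting are not known. The overlaps given here are of whole GENCODE gene spans, introns included. A strand setting would not separate genes on the same strand. The span of OSGIN1 shares 20135 bases with MLYCD on the same strand, that of SRXN1 shares 6575 bases, nearly its whole length, with another protein-coding gene (ENSG00000270299), and that of TXNRD1 shares 1467 bases with EID3. On their own strand, NFE2L2 shares 121575 bases of its span with the long noncoding RNA ENSG00000213963 and GCLC shares 55682 bases with the long noncoding RNA ENSG00000231683. NFE2L2 also overlaps HNRNPA3 on the opposite strand over 5293 bases, and GCLC its antisense RNA GCLC-AS1 over 4552 bases. Reads in these stretches could be split, dropped or given to the other gene. TXN also has near-identical pseudogene copies.

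**Figure D2:**
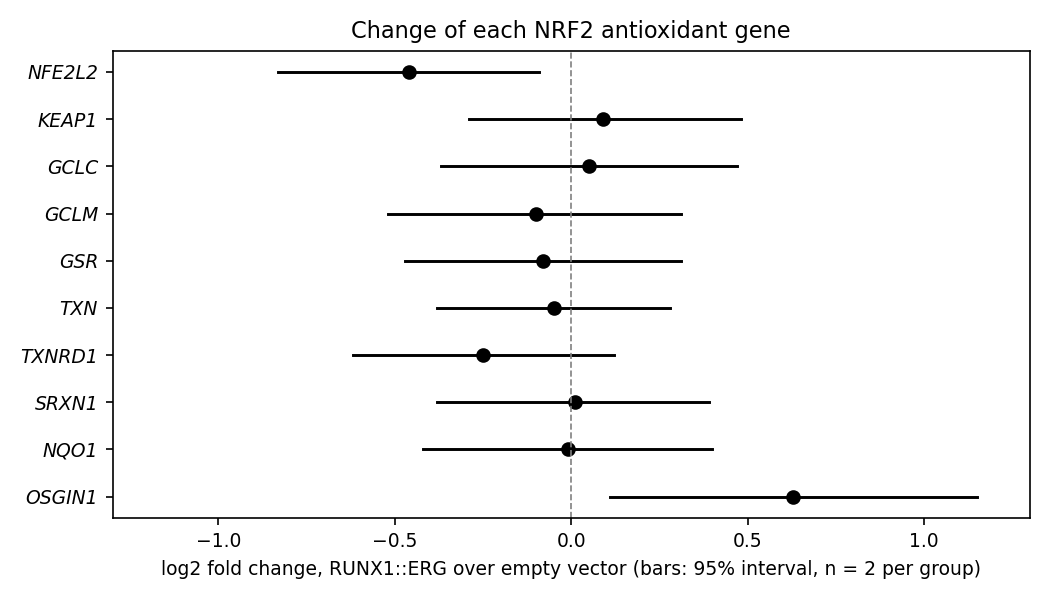
Log2 fold change of RUNX1::ERG over empty vector for each of the 10 genes, with the single-gene 95% interval from the edgeR fit as bars. The intervals of 8 genes cross 0, and those of NFE2L2 and OSGIN1 do not, before adjustment for the number of genes tested.

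For the 8 genes whose groups overlapped, the 95% intervals on the linear scale ran from 0.65 times the empty vector level at the lower end, for TXNRD1, to 1.39 times at the upper end, for KEAP1 and GCLC. Changes within these limits could not be told from none with 2 libraries per group. The single-gene intervals of these 8 genes did not include a doubling or a halving with RUNX1::ERG.

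The order of the levels was compared per kilobase of canonical transcript, in normalized CPM per kilobase. With the empty vector, TXN was at 276 ± 18.6 and was followed by TXNRD1 at 73.1 ± 11, KEAP1 at 58.8 ± 12.3, GSR at 45.8 ± 8.23 and NFE2L2 at 39.6 ± 5.81 (SD, n = 2 each). Each of the last 4 overlapped its neighbour in this order. NQO1 at 30.7 ± 5.83, SRXN1 at 23 ± 4.06, GCLM at 14.2 ± 1.85, GCLC at 4.72 ± 0.38 and OSGIN1 at 3.03 ± 0.288 (SD, n = 2 each) followed, without overlap between neighbours from NFE2L2 down. The modifier subunit of glutamate-cysteine ligase was thus above the catalytic subunit in mRNA per kilobase. With RUNX1::ERG, KEAP1 was at 62.6 ± 0.91 and TXNRD1 at 61.5 ± 7.66, which overlapped. NFE2L2, at 28.7 ± 2.37, then lay level with NQO1 at 30.5 ± 4.45 (SD, n = 2 each), and these overlapped too. Reads of different isoforms are not separated in these counts.

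The spread within groups was as large as most of the differences between them. In 9 of the 10 genes, all but NFE2L2, empty vector replicate 2 was above empty vector replicate 1, against 47.6% of all genes tested. The gap was largest for KEAP1, NQO1, GSR and SRXN1, at 34.6%, 31.1%, 29.1% and 28.6%. RUNX1::ERG replicate 2 was above replicate 1 in 6 of the 10 genes, against 49.6% of all genes tested, by 33.4% for GCLM, 23% for NQO1, 19.3% for TXNRD1 and 17.8% for GSR. The empty vector library with the lower values of these genes is the one with the high ATF4 stress genes, and the part of that difference in these results was not tested. Without that library the log2 fold changes of GCLM, GSR, NQO1, SRXN1 and TXNRD1 were -0.23, -0.26, -0.19, -0.17 and -0.4, and without the other empty vector library they were 0.04, 0.12, 0.2, 0.2 and -0.09. None of these passed the threshold.

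**Figure D3:**
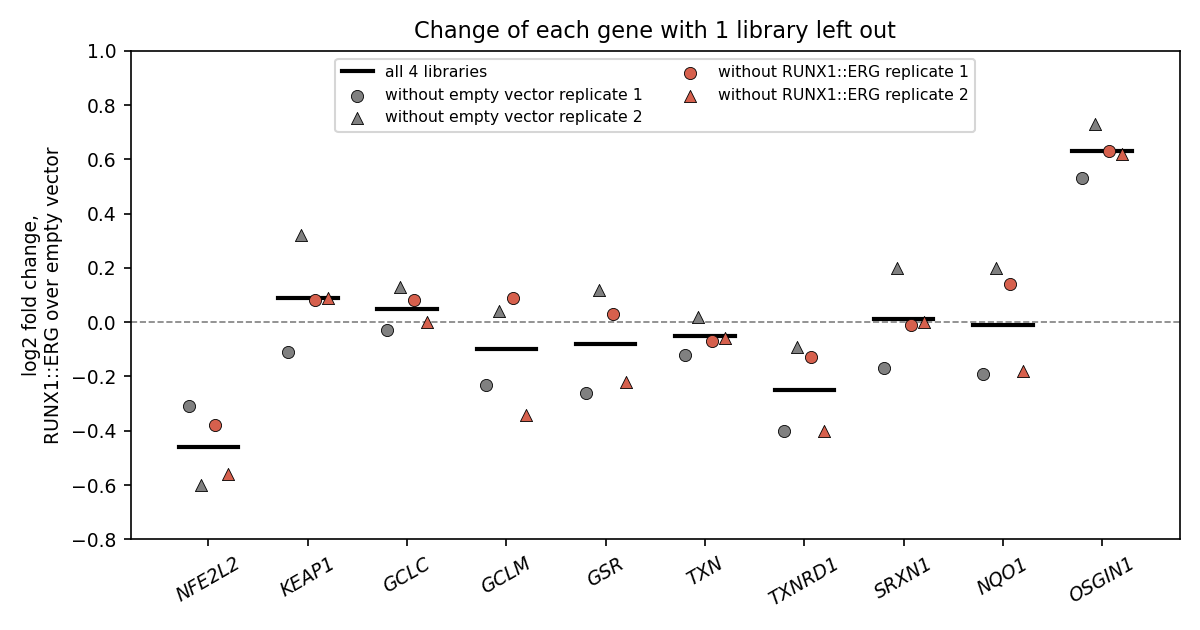
Log2 fold change of each gene with all 4 libraries (black line) and with 1 library left out (symbols). NFE2L2 and TXNRD1 stay below 0 and OSGIN1 above 0 in all 4 cases, and the other 7 genes have values on both sides of 0 or at it.

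As a description of the profile of NFE2L2 over the 4 libraries, the genes nearest to it were GTF2H3, FBXO4 and AP1AR, at Euclidean distances of 0.0292, 0.0429 and 0.0571 in centred log2 CPM, among 9137 genes with a mean of at least 10 CPM. None of the NRF2 targets described here is among the 3. With so few genes named, this does not show whether the targets vary with NFE2L2. OSGIN1, at a mean of 7.42 CPM, was below the limit and not compared.

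The other genes of the pathway were taken from a list of 89 genes that contains none of the 10. Of these, 81 were tested, and 1 rose and 1 fell with an adjusted p under 0.05, against 4.79% of all genes tested. Such small counts are near that share. Without a filter 8 of 87 were called, against 1500 of 20312 over all genes. The median log2 fold change of the 81 genes was 0.03. The RUNX1::ERG values lay wholly above the empty vector values in 27 of the 81 genes and wholly below in 22. Both shares are higher than the 25.1% and 22.1% of all genes tested, and this difference was not tested. The 8 genes not tested had at most 14 counts in a library. Among these was HMOX1, heme oxygenase, a classical NRF2 target named for that reason outside the rule, which had 2, 4, 6 and 0 counts.

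The gene that rose was ABCC3 (NCBI gene 8714, chromosome 17, 48712138 to 48769614, plus strand), an export pump for glutathione and glucuronide conjugates. Its counts were 11 and 9 with the empty vector and 312 and 159 with RUNX1::ERG. It was nearly silent with the empty vector, and with RUNX1::ERG it stayed low, at 3.7 and 2.21 normalized CPM. The log2 fold change was 4.25 (SE 0.48, edgeR adjusted p = 0.000687), and it was called under all 10 alternatives, with values from 3.83 to 4.56. The level was higher in the library with more ERG counts, which is a comparison of 2 libraries only.

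The gene that fell was AKR1B1 (NCBI gene 231, chromosome 7, 134127108 to 134144036, minus strand), aldose reductase, which reduces glucose and reactive aldehydes with NADPH. It was at 19.1 and 20.4 normalized CPM in the empty vector libraries and at 11.2 and 11.4 with RUNX1::ERG. The RUNX1::ERG libraries were lower by far more than the gap within either group. The log2 fold change was -0.8 (SE 0.2, edgeR adjusted p = 0.0442), close to the threshold, and it missed the threshold in 4 of the 10 alternatives. The adjusted p was 0.062 when libraries were scaled by their totals. It was 0.051 when empty vector replicate 2 was left out, 0.22 when RUNX1::ERG replicate 1 was, and 0.11 when RUNX1::ERG replicate 2 was, within a range from 0.003 to 0.22.

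Of the 15 regulators and partners of NRF2, none was called. An unadjusted p under 0.05 was found for 1, SQSTM1, against 2767 of all 15394 genes tested. The highest mean levels were those of NFE2, the erythroid relative of NRF2 that binds similar elements, and SQSTM1, the autophagy receptor that can sequester KEAP1. NFE2 was at 305 and 322 normalized CPM in the empty vector libraries and at 299 and 287 with RUNX1::ERG, a log2 fold change of -0.1 (adjusted p = 0.795 from edgeR). SQSTM1 was at 182 and 230 with the empty vector and at 329 and 293 with RUNX1::ERG. With RUNX1::ERG both values were higher, with a log2 fold change of 0.59 (SE 0.17, edgeR adjusted p = 0.0722), and it was called in 4 of the 10 alternatives, with adjusted p from 0.01, when empty vector replicate 2 was left out, to 0.35, when RUNX1::ERG replicate 1 was.

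Of the 26 other glutathione genes, 24 were tested and none passed the threshold. An unadjusted p under 0.05 was found for 7 of the 24, against 2767 of all 15394 genes tested. Besides SLC7A11 and CHAC1, these were MGST1, GSTO1, GSTM4, MGST3 and GGT1. Their log2 fold changes were -0.6, -0.41, 0.46, 0.41 and 0.5, and the groups did not overlap in any of these 5. GSTP1, the most abundant, a transferase that joins glutathione to electrophiles, was at 852 and 883 normalized CPM in the empty vector libraries and at 778 and 735 with RUNX1::ERG (log2 fold change -0.2, adjusted p = 0.497 from edgeR). SLC3A2 and SLC7A11, the chains of the cystine importer, and CHAC1, which breaks glutathione down, were high in 1 library only. SLC7A11 was at 104 normalized CPM in empty vector replicate 1 and at 17, 13.8 and 18.3 in empty vector replicate 2 and RUNX1::ERG replicates 1 and 2. For CHAC1 these values were 47.6, 3.39, 2.67 and 2.41, and for SLC3A2 they were 411, 202, 237 and 177.

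SLC7A11 and CHAC1 are also on the ATF4 stress list. Their log2 fold changes were -1.91 and -3.33 (adjusted p = 0.0981 and 0.0505 from edgeR), and without empty vector replicate 1 they were -0.09 and -0.42. Over the 10 alternatives, SLC7A11 was called lower in 3, with values from -2.69 to -0.09 and adjusted p from 3.2e-29 to 0.91, and CHAC1 in 5, with values from -4.23 to -0.42 and adjusted p from 5.3e-54 to 0.6. The lowest p-values of both came without empty vector replicate 2, when empty vector replicate 1 stood alone for its group. SLC3A2 moved from -0.57 (adjusted p = 0.322) to 0.03 without empty vector replicate 1 and was called lower in 2 alternatives, with adjusted p from 7.3e-05 to 0.98. SLC7A11 and CHAC1 were chosen after their values were seen.

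The 12 other thioredoxin and peroxiredoxin genes were all tested and none passed the threshold. PRDX1 and PRDX6, peroxide-reducing enzymes with the highest levels of this group, had log2 fold changes of -0.29 (adjusted p = 0.295) and 0.08 (adjusted p = 0.837 from edgeR). PRDX5, a peroxiredoxin of mitochondria, peroxisomes and cytosol that was chosen after its values were seen, was at 175 and 147 normalized CPM in the empty vector libraries and at 297 and 227 with RUNX1::ERG. Each RUNX1::ERG value was higher, with a log2 fold change of 0.7 (SE 0.18) and an edgeR adjusted p of 0.0503, just outside the threshold. It was called in 6 of the 10 alternatives, and its adjusted p ran from 0.0024, with no filter on low counts, to 0.35, when RUNX1::ERG replicate 1 was left out.

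None of the 6 NADPH supply genes passed the threshold. PGD and TALDO1, both of the pentose phosphate pathway, were at log2 fold changes of -0.1 and 0.05 (adjusted p = 0.801 and 0.907 from edgeR). IDH1, the cytosolic isocitrate dehydrogenase, chosen after its values were seen, was at 154 and 69.5 normalized CPM in the empty vector libraries and at 48 and 65.2 with RUNX1::ERG, so it too was highest in empty vector replicate 1. Its log2 fold change was -0.98 (adjusted p = 0.105 from edgeR) and without that library -0.3. It was called lower in 3 of the 10 alternatives, with values from -1.44 to -0.3 and adjusted p from 8.7e-09 to 0.54. Apart from ABCC3 and AKR1B1, no gene of the quinone, carbonyl, heme, iron and export group passed, and 20 of its 26 genes were tested. The ferritin chains FTL and FTH1 had the highest levels, with log2 fold changes of 0.21 and 0.04 (adjusted p = 0.408 and 0.907 from edgeR). Their counts are uncertain because of near-identical pseudogene copies. SOD1 and CAT, superoxide dismutase and catalase, were at -0.3 and -0.38 (adjusted p = 0.309 and 0.214 from edgeR), and both RUNX1::ERG libraries were below both empty vector libraries for each.

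**Figure D4:**
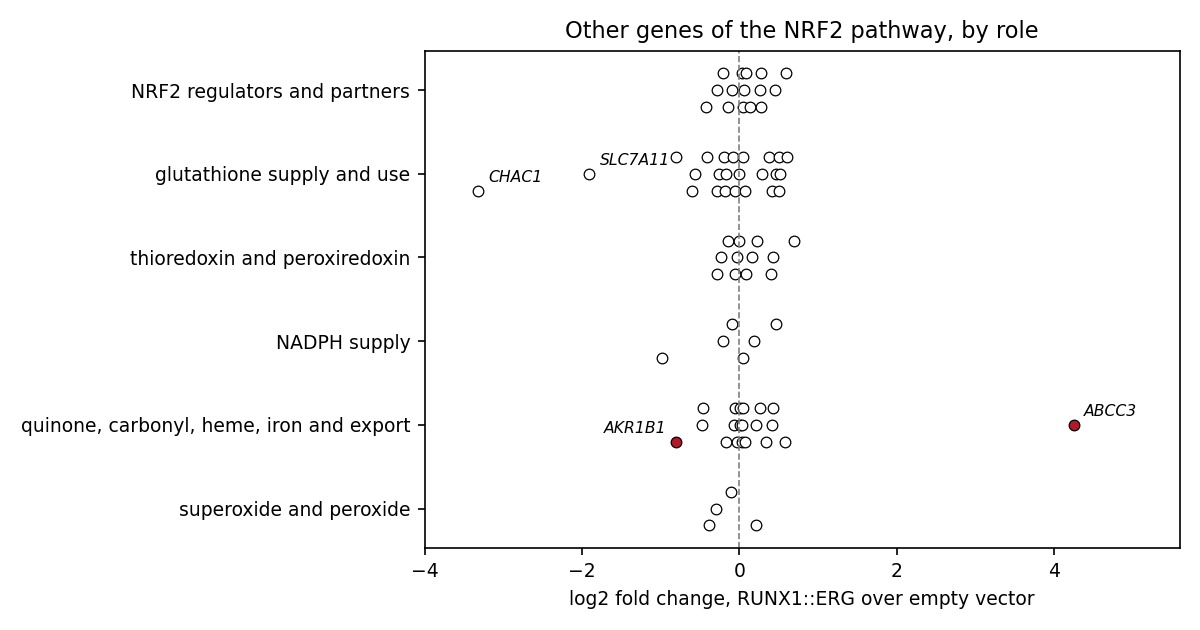
Log2 fold change of RUNX1::ERG over empty vector for the 81 tested genes of the NRF2 pathway list, by role group; filled red points have an adjusted p under 0.05, and the vertical offset within a group only separates points. ABCC3 at 4.25 and AKR1B1 at -0.8 are the filled points, and the open points of CHAC1 and SLC7A11 lie furthest to the left.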

How the data were processed

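The deposited files, 1 per library for 4 libraries, hold unnormalized read counts by NCBI gene number. The submitters' processing notes name HISAT2 2.2.1, featureCounts 2.0.1 and hg19. Annotation, strand setting and pair handling are not given in the sources used here, so overlapping and antisense genes are uncertain. Of the counts from 1 to 10, 66.7% to 68.9% per library were even. Symbols from a RefSeq table of GRCh38.p14 matched 92.2% of genes. Positions, transcript lengths and sequences are from GENCODE v44 and the GRCh37 genome.

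The main test was edgeR 4.0.16 in R 4.3.3, fitting both groups without covariates: filterByExpr removed low genes, libraries were scaled by TMM, and the quasi-likelihood test was adjusted by Benjamini-Hochberg at 0.05. Normalized CPM uses TMM library sizes. Standard errors are the log2 fold change divided by the square root of F. Alternatives were other scalings, no filter, DESeq2 1.42.0, limma 3.58.1 voom, a replicate block and leaving out each library. The genes and lists were chosen with earlier results of these data known. Named are all 10 genes, and of the other pathway genes those past the threshold and the 2 with the highest mean CPM in each role group. SLC7A11, CHAC1, PRDX5, IDH1, HMOX1, MGST1, GSTO1, GSTM4, MGST3 and GGT1 were named outside this rule, after their values were seen.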

Additional observations from a re-analysis of the deposited data

How the results depend on the processing

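No NRF2 antioxidant gene was called under any of the 10 alternatives. Where all 4 libraries were kept, 2 or 3 of the 10 genes had an unadjusted p under 0.05. Over all genes, 2730 to 3917 of the 15394 to 20312 tested had one. Over all genes, 737 were called, 76% of them higher, against 1500 without a filter (64.1% higher), 1194 with the DESeq2 Wald test (66.7% higher) and 286 to 1336 with 1 library left out. Calls lower with RUNX1::ERG numbered 177 in the reported fit and 58 to 602 with 1 library left out. The share of higher calls was 54.9% without empty vector replicate 2 (734 higher, 602 lower), 79.7% without RUNX1::ERG replicate 1 and 83.3% with library totals. Of the other pathway genes, 2 were called, against 4 with DESeq2 size factors, 1 with library totals, 8 without a filter, 5 with the DESeq2 Wald test and 1 to 6 with 1 library left out. The cause was not tested. Adding the replicate block gave 1733 calls (62.4% higher), 7 of them among the other pathway genes and 0 among the 10. The adjusted p was then 0.073 for NFE2L2 and 0.065 for OSGIN1. Libraries that share a number deviated together (r = 0.349 across genes), but no label ties the numbers to a batch, so this is a hint from the data and not a pairing by design.

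Of 100 values of the 10 genes under the alternatives, 16 changed direction, none of them called. NQO1 was at 0.04 with library totals, and SRXN1 at -0.01 in the unfiltered fit and under both DESeq2 settings (size factors and Wald test). With 1 library left out, the log2 fold change ran from -0.11 to 0.32 for KEAP1, from -0.03 to 0.13 for GCLC, from -0.34 to 0.09 for GCLM, from -0.19 to 0.2 for NQO1, from -0.17 to 0.2 for SRXN1, from -0.26 to 0.12 for GSR and from -0.12 to 0.02 for TXN. The lone library of an arm is then assumed to vary like the other group.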
